A study of Rattus norvegicus with 84 samples.

Results

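MiRNAs carried by plasma-derived extracellular vesicles (EVs) were compared between rats 10 days after stroke and healthy rats. The comparison used 6 small RNA libraries of the 84 in the study, 3 from the control group at 10 days poststroke and 3 from the healthy group, selected by their labels, with 1 library per rat. Of the 699 known rat miRNAs listed, 511 had at least 1 unique molecular identifier (UMI) count in these libraries and 309 passed the filter on low counts and were tested. The study sequenced mRNA and miRNA of EVs from brain and plasma of 21 male Sprague-Dawley rats in 7 groups of 3, to ask what EV cargo in blood shows of stroke and of transplanted human neural stem cells (hNSCs).

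All animals were wild type and 8 to 12 weeks old. In the control group the middle cerebral artery of the right hemisphere was occluded for 90 min, and saline was injected into the carotid artery 3 days later. The healthy group had neither stroke nor injection and none of the sequenced groups was sham-operated, so that stroke, surgery, anesthesia, and saline injection cannot be told apart in the difference between these groups. For comparison, plasma libraries of the control group at 4 and 31 days and of the hNSCs group at 10 days (same occlusion, hNSCs injected at 3 days) were used, together with the brain-derived EV libraries of the same control and healthy rats.

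MiRNAs are short RNAs loaded into Argonaute proteins, where the seed, bases 2 to 8 from the 5′ end, pairs with messenger RNAs and lowers their translation or stability. In blood they travel in EVs, in protein complexes, and in lipoproteins, and they are shed mainly by blood cells, endothelium, and liver. A change in plasma can come from vesicles of one source becoming fewer or from each vesicle carrying less of a miRNA, and these cannot be told apart in bulk EV libraries.

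Mature sequences are shown for the 10 miRNAs with the smallest unadjusted p except miR-328a-3p, because the seed decides which messages a miRNA can reach. They are RefSeq sequences (GRCr8), which held 41 of the 44 miRNAs selected by the naming rule, and all 41 matched the deposited sequences. Seed bases are in capitals. The first 6 had lower levels at 10 days poststroke with no overlap between the groups in TMM-scaled levels, as did 10.7% of all tested. The seventh was at 0 in all 3 control libraries, and the last 2 had a higher mean. All were picked by their p in these data, so nothing is read from the 6.
miR-342-3p: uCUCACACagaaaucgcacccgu
miR-365-3p: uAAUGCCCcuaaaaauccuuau
miR-361-5p: uUAUCAGAaucuccagggguac
miR-146a-5p: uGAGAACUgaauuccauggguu
miR-187-3p: uCGUGUCUuguguugcagccgg
miR-532-3p: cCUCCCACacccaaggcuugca
miR-369-5p: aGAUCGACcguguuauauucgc
miR-488-3p: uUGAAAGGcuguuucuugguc
miR-9a-3p: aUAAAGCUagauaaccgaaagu

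No seed was shared among these 9. Only miR-146a-5p shared its seed with another tested miRNA, miR-146b-5p, and both had a negative log2 fold change, of −0.80 ± 0.30 (SE) and −0.65 ± 0.42. The most abundant cargo is shown next, since its seeds make up most of the plasma EV pool. The let-7 members carry 1 seed, and they differ only outside it.
miR-16-5p: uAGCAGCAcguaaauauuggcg
let-7a-5p: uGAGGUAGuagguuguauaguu
let-7b-5p: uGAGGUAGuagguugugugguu
let-7c-5p: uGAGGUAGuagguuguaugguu
let-7e-5p: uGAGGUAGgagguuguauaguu
miR-122-5p: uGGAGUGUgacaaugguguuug

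The 6 libraries differed in depth within both groups. UMI totals were 1183204, 614526, and 771164 in the control group at 10 days and 1164864, 1648698, and 906133 in the healthy group. The ranges overlapped (p = 0.3 by exact permutation, two-sided, in a design that cannot give a p under 0.1). Known miRNAs took 94.9% to 98.0% of the UMIs. A library detected 366 to 389 known miRNAs in the control group and 382 to 429 in the healthy group (exact p = 0.2). Across the tested miRNAs, Pearson's r of log2(CPM + 1), with CPM the UMI count relative to the library size after TMM scaling, was 0.930 to 0.966 (median 0.962) between libraries of 1 group and 0.935 to 0.970 (median 0.949) between libraries of different groups. The ranges overlapped almost wholly.

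The 10 most abundant miRNAs took 60.8% to 74.6% of the known UMIs of a library. They were miR-16-5p, abundant in red cells, 6 let-7 members, the hepatocyte miRNA miR-122-5p, the hematopoietic miRNA miR-142-3p, and the endothelial and platelet miRNA miR-126a-3p. MiR-16-5p was the top miRNA in 4 libraries, with 16.2% and 18.3% of known UMIs in control replicates 2 and 3 and 20.7% and 26.6% in healthy replicates 1 and 3. In control replicate 1 and healthy replicate 2 the top miRNA was let-7a-5p instead, with 15.2% and 14.3%.

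These 2 libraries stood apart in the let-7 family as a whole. The let-7 and miR-98 list took 52.7% of known UMIs in control replicate 1 and 52.1% in healthy replicate 2, against 28.3% and 37.3% in the other control libraries and 25.7% and 28.3% in the other healthy libraries. One of the 15 other plasma libraries of the study was above 50%, at 55.5%, and their median was 33.0%. Because 1 such library lay in each group, the let-7 family did not separate the groups. Its 9 members were all tested, with a median log2 fold change of −0.09 under TMM and 0.21 under DESeq2 size factors.

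**Figure D1:**
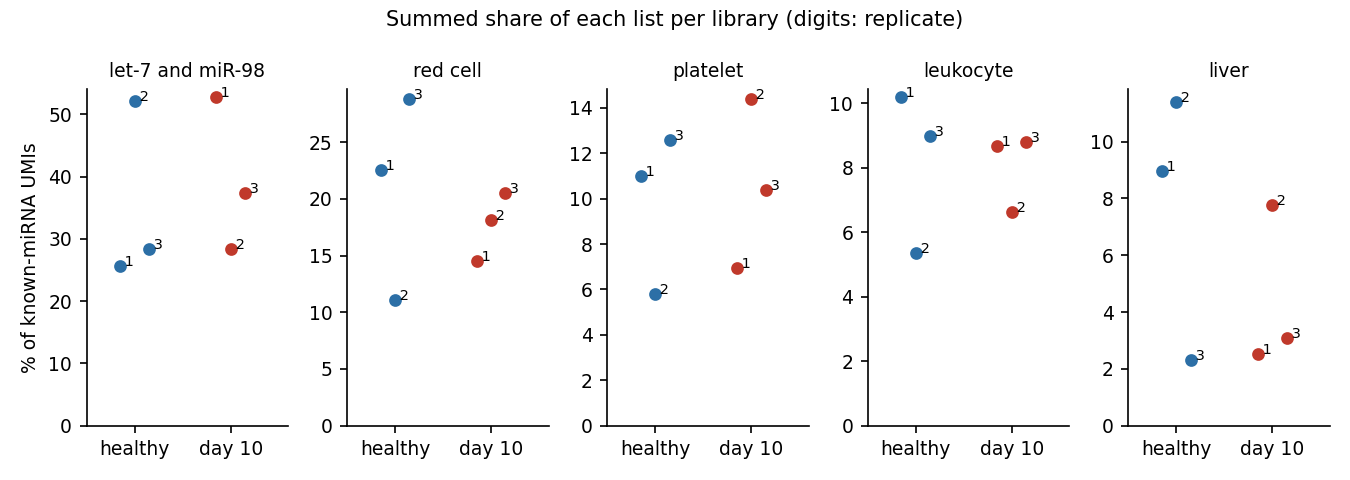
Summed share of 5 miRNA lists, in percent of known-miRNA UMIs (vertical axis, each panel from 0), in the 3 healthy libraries (blue) and the 3 control libraries at 10 days poststroke (red), with the replicate number beside each point. The groups overlap in every panel, and control replicate 1 and healthy replicate 2 are high in the let-7 list (52.7% and 52.1%) and low in the red cell list (14.5% and 11.1%).

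No miRNA was called different between the control group at 10 days poststroke and the healthy group. A call required a change over 1.5-fold and, in edgeR's quasi-likelihood test, a p under 0.05 after Benjamini-Hochberg adjustment. On that rule 0 of 309 were called (0%), and the smallest adjusted p was 0.628. At an unadjusted p under 0.05, 9 had a higher level (2.91% of those tested) and 14 a lower level (4.53%), all of them over 1.5-fold. DESeq2 and limma also called 0, with 18 and 15 (limma on log2(TPM + 1)) at an unadjusted p under 0.05. The median SE of a log2 fold change was 0.57 (range 0.23 to 2.30), so that for most miRNAs a difference of 2-fold was within 2 SE.

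The scaling moved the median of all miRNAs. The median log2 fold change over the 309 was −0.25 with the TMM factors of the main fit. It was −0.04 with DESeq2 size factors and with library totals alone. TMM factors of other fits, over the miRNAs tested there, gave 0.0 without the filter on low counts and 0.0 at a mean TPM over 5. With only the 6 libraries compared, TMM gave 0.03. The TMM factor of healthy replicate 2, one of the let-7-rich libraries, was 0.697, against 0.938 to 1.18 in the other 5. All 3 control libraries lay above all 3 healthy libraries for 6 miRNAs (1.94%) and below them for 33 (10.7%) in TMM-scaled CPM. In the deposited TPM, which uses the library total, the counts turned to 20 above (6.47%) and 10 below (3.24%). The 6 and the 10 were separated on both scales. Changes are therefore also given relative to the median of all tested miRNAs.

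MiR-342-3p, which is abundant in lymphocytes and monocytes, had the smallest p. Its level was 3236, 3075, and 3402 CPM in the control group at 10 days and 6814, 8578, and 6653 CPM in the healthy group. The 3 control libraries were within a narrow range and far below every healthy library, on both scales. The log2 fold change was −1.18 ± 0.37 (SE, n = 3 and 3), a 2.27-fold lower level, with an unadjusted p of 0.00512 and an edgeR adjusted p of 0.628. Relative to the median it was −0.93, and between −1.02 and −0.78 when each of the 6 libraries was left out.

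MiR-365-3p is made from a pair of loci and is best known from adipocyte and muscle differentiation. Its level was 25.1, 64.8, and 25.1 CPM in the control group and 112, 178, and 65.9 CPM in the healthy group, so that the highest control library lay just under the lowest healthy library. The log2 fold change was −1.64 ± 0.52 (unadjusted p = 0.00536). In deposited TPM its groups overlapped.

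MiR-187-3p had 33.5, 22.5, and 27.9 CPM in the control group and 150, 156, and 35.4 CPM in the healthy group. The gap to the healthy group was wide for 2 healthy libraries and narrow for the third. The log2 fold change was −2.02 ± 0.77 (unadjusted p = 0.0163).

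MiR-361-5p and miR-532-3p, both from hosts on the X chromosome, differed less but with little spread. MiR-361-5p was at 259, 245, and 325 CPM in the control group and 505, 495, and 380 CPM in the healthy group (log2 fold change −0.74 ± 0.28, unadjusted p = 0.0159). MiR-532-3p was at 66.1, 63.4, and 51.7 CPM in the control group and 100, 119, and 92.8 CPM in the healthy group (−0.78 ± 0.32, unadjusted p = 0.0233). Both were separated between the groups on both scales. Relative to the median they were −0.49 and −0.53, and with predicted miRNAs kept −0.19 and −0.26. MiR-361-5p was −0.29 without control replicate 2.

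Among the 10 miRNAs with the smallest p, miR-328a-3p was the most abundant of those with a higher mean in the control group. It had 6904, 1695, and 3366 CPM in the control group and 1344, 2221, and 1381 CPM in the healthy group. The order followed the groups except that control replicate 2 was below healthy replicate 2. The log2 fold change was 1.27 ± 0.47 (unadjusted p = 0.0140), and in deposited TPM the groups did not overlap. Relative to the median it was 1.52, and 0.83 without control replicate 1.

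The neuronal miRNA miR-488-3p had 53.1, 22.5, and 72.6 CPM in the control group and 9.49, 25.9, and 8.55 CPM in the healthy group (log2 fold change 1.73 ± 0.73, unadjusted p = 0.0271). One healthy library again lay inside the control range in CPM, and in deposited TPM the groups did not overlap. MiR-9a-3p, which acts in neural progenitors, had 0, 25.3, and 6.98 CPM in the control group and 1.72, 0.895, and 1.22 CPM in the healthy group. Only 2 control libraries were above the level of 3 counts, which was 2.59 to 4.22 CPM across the 6 libraries, and its log2 fold change of 2.89 ± 1.05 rests on them. MiR-369-5p, of the imprinted Dlk1-Dio3 cluster, had no UMI in any control library and 15, 14, and 0 UMIs in the healthy libraries, and was at least 7.81-fold lower against a floor of 3 counts over the control group.

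There were 6 miRNAs above the healthy range in all control libraries on both scales, named here after their values were seen. They were miR-466b-5p, miR-1843a-3p, miR-1843b-3p, miR-330-5p, miR-33-5p, and the hypoxia-induced miR-210-3p. MiR-330-5p had 81.0, 35.2, and 60.0 CPM in the control group and 21.6, 33.1, and 17.1 CPM in the healthy group. MiR-210-3p had 45.6, 43.6, and 54.4 CPM against 27.6, 42.9, and 39.1 CPM, a log2 fold change of 0.39 ± 0.38 (unadjusted p = 0.320). The difference of miR-210-3p was about the size of its SE.

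**Figure D2:**
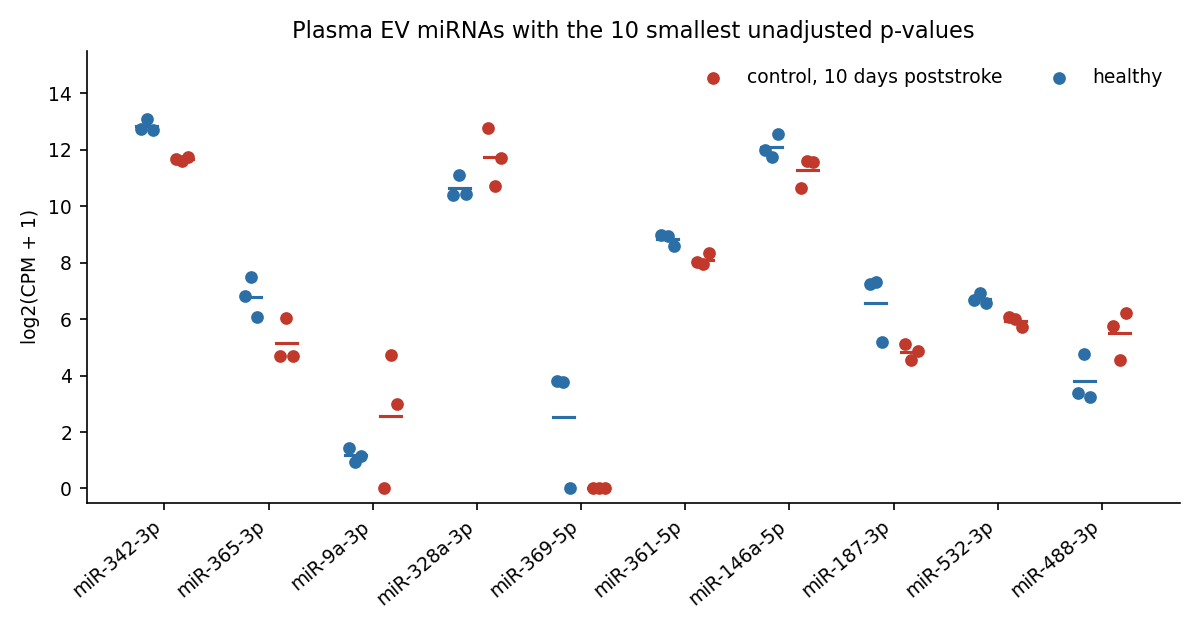
Levels of the 10 miRNAs with the smallest unadjusted p-values, as log2(CPM + 1) (vertical axis), in each healthy library (blue) and each control library at 10 days poststroke (red), with a bar at the group mean. In TMM-scaled CPM the groups are separated for 6 of the 10, all lower in the control group, against 10.7% of all tested. The 10 were picked by their p in these data, so nothing is read from this count. The 3 control libraries of miR-342-3p lie between 3075 and 3402 CPM and its healthy libraries between 6653 and 8578 CPM. The points overlap for miR-9a-3p, miR-328a-3p, miR-369-5p, and miR-488-3p. In deposited TPM miR-365-3p and miR-146a-5p overlap, and miR-328a-3p and miR-488-3p are separated.

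Lists of miRNAs typical of a cell type or sharing a family were described by their counts and medians. None of the 19 lists held a called miRNA. Their medians are set beside that of all 309 tested miRNAs in the main fit (−0.25), of which 210 were below 0. With DESeq2 size factors the median of all was −0.04.

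The leukocyte list had a median log2 fold change of −0.80 (−0.61 with DESeq2 size factors) over 9 tested members of 11, with 7 below 0. Of the 9, 5 were lower in every control library than in any healthy library, against 10.7% of all tested miRNAs, but only miR-342-3p of them stayed separated in deposited TPM (3.24% of all tested). These 5 were miR-342-3p, miR-146a-5p, miR-150-5p, miR-150-3p, and miR-155-5p. The summed share of the list did not follow them, at 8.66%, 6.63%, and 8.79% of known UMIs in the control group and 10.2%, 5.35%, and 8.97% in the healthy group, and was led by miR-142-3p, the most abundant member. MiR-142-3p had 70687, 27536, and 53775 CPM in the control group and 42781, 34315, and 39063 CPM in the healthy group (0.39 ± 0.49, unadjusted p = 0.439). Relative to the median it was 0.64, with 0.28 without control replicate 1 and 1.06 without control replicate 2.

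MiR-146a-5p, which restrains Toll-like receptor signaling, was at 1610, 3075, and 3049 CPM in the control group and 4055, 3422, and 5981 CPM in the healthy group (−0.80 ± 0.30, unadjusted p = 0.0159). MiR-150-5p, a miRNA of mature lymphocytes, was at 7883, 12366, and 17545 CPM against 28638, 22861, and 22363 CPM (−0.97 ± 0.51, unadjusted p = 0.0711). MiR-155-5p, induced in activated macrophages and lymphocytes, was at 155, 213, and 285 CPM against 374, 343, and 537 CPM (−0.94 ± 0.50, unadjusted p = 0.0762). These 3 were separated in CPM and overlapped in TPM. The myeloid miR-223-5p was, with miR-142-3p, one of the 2 members with a positive log2 fold change, at 280, 73.2, and 166 CPM against 59.5, 117, and 103 CPM (0.90 ± 0.64, unadjusted p = 0.174).

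The epithelial and pancreatic list had a median of −1.13 (−0.92 with DESeq2 size factors) over 10 members, 9 of them below 0. Its summed share overlapped between the groups, at 0.118%, 0.244%, and 0.201% of known UMIs in the control group and 0.282%, 0.222%, and 0.221% in the healthy group. It includes the miR-200 family, which holds epithelial identity, and the acinar miR-216a-5p and miR-217-5p. Its top member miR-200a-3p was at 240, 408, and 531 CPM in the control group and 1080, 1066, and 394 CPM in the healthy group (−1.11 ± 0.65, unadjusted p = 0.103). MiR-141-3p, at 110, 206, and 200 CPM against 325, 312, and 294 CPM, was separated in CPM but not in TPM, and miR-217-5p, with at most 1 UMI in a control library, on both scales. For miR-200a-3p, miR-200b-3p, miR-200c-3p, and miR-429, healthy replicate 3 lay near the control level and healthy replicates 1 and 2 above it.

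The same 2 healthy libraries were high in the Dlk1-Dio3 cluster, an imprinted locus active in brain, muscle, and endocrine tissue. Of its 82 listed miRNAs, 18 were tested (median −1.18, the same with miR-369-5p at its bound, and 15 below 0). With DESeq2 size factors the median was −0.90. The cluster took 0.0179%, 0.0135%, and 0.0111% of known UMIs in the control group and 0.0335%, 0.0334%, and 0.0102% in the healthy group. Its top member miR-434-3p had 15.8, 19.7, and 15.4 CPM against 59.5, 102, and 13.4 CPM (−1.78 ± 0.89, unadjusted p = 0.0601). Relative to the median this was −1.54, and −0.86 without healthy replicate 2.

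The liver list followed a like pattern (6 tested, median −0.53, and −0.37 with DESeq2 size factors). MiR-122-5p, nearly specific to hepatocytes, was at 14086, 56689, and 23752 CPM in the control group and 77396, 144420, and 17218 CPM in the healthy group (−1.34 ± 0.76, unadjusted p = 0.0927). The lowest healthy library, at 17218 CPM, lay inside the control range. Relative to the median the difference was −1.09, and −0.38 without healthy replicate 2.

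**Figure D3:**
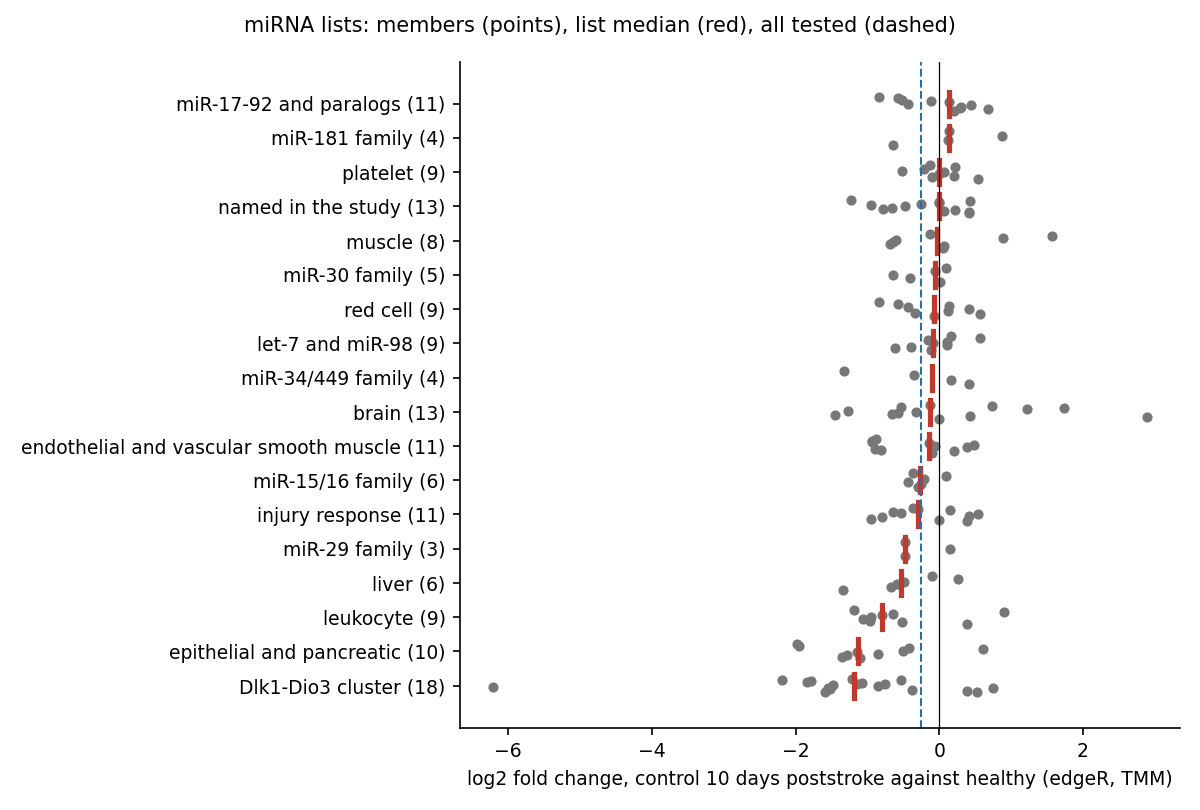
Log2 fold change of the control group at 10 days poststroke against the healthy group (horizontal axis, edgeR with TMM factors) for each tested member (grey points) of 18 miRNA lists with their number of tested members, with the list median (red bar) and the median of all 309 tested miRNAs (dashed line, −0.25). The leukocyte, epithelial and pancreatic, and Dlk1-Dio3 medians lie at −0.80, −1.13, and −1.18, and the point farthest to the left is miR-369-5p, which had no UMI in the control libraries, so that its place depends on the prior count.

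Brain-typical miRNAs took 0.307% to 1.46% of the known UMIs of a plasma EV library, and some were nearly absent. MiR-124-3p, the leading neuronal miRNA, had 1 UMI in the 6 libraries together, miR-124-5p and miR-212-3p had none, and 13 of the 20 listed miRNAs were tested (median −0.13). The share of the list was mostly miR-128-3p, at 14419, 3712, and 9786 CPM in the control group and 3061, 15566, and 2171 CPM in the healthy group (0.42 ± 0.70, unadjusted p = 0.552). It was high in the let-7-rich libraries of both groups, and relative to the median its difference was 0.67, with 0.18 without control replicate 1 and 2.13 without healthy replicate 2.

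Red cell material was measured because hemolysis adds miRNAs to plasma. The log2 ratio of miR-451-5p, a red cell miRNA, to miR-23a-3p, which is stable in hemolysis, was −1.51, −1.13, and −0.827 in the control group and −1.40, −2.67, and −0.630 in the healthy group (means −1.16 ± 0.342 and −1.57 ± 1.03, SD, n = 3; exact p = 0.7). The difference of 0.411 turned to −0.14 without healthy replicate 2. The red cell list took 14.5%, 18.1%, and 20.5% of known UMIs in the control group and 22.5%, 11.1%, and 28.8% in the healthy group, led by miR-16-5p, and its median log2 fold change was −0.07 over 9 members. In the plasma mRNA libraries of the same rats, hemoglobin genes took 13.6%, 17.3%, and 16.9% of gene counts in the control group and 7.14%, 4.07%, and 10.3% in the healthy group, so that hemoglobin mRNA was higher in every control rat. Its part in the miRNA values was not tested, and with the red cell list left out of the test 0 miRNAs were called.

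The other lists are given by their medians alone. The platelet list had a median of 0.00 (0.18 with DESeq2 size factors) (9 members), the muscle list −0.04 (8), the endothelial and vascular smooth muscle list −0.14 (11), and the injury response list −0.29 (11). The miR-17-92 paralogs (0.14), the miR-181 family (0.13), the miR-30 family (−0.05), the miR-34 family (−0.10), the miR-15/16 family (−0.27), and the miR-29 family (−0.48) held no called member. With DESeq2 size factors the muscle, brain, endothelial, red cell, miR-30, and miR-34 medians took a positive sign (0.16, 0.07, 0.03, 0.10, 0.14, and 0.08), and the injury response, miR-15/16, miR-29, miR-17-92, and miR-181 medians were −0.07, −0.06, −0.29, 0.42, and 0.42. None of the 12 testis X-linked miRNAs passed the filter.

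A further list held 15 of the miRNAs that the study names, which does not cover all of them. The study took miR-128-3p, miR-9a-5p, miR-124-3p, and miR-21-5p of this list from earlier reports on stroke. Others, among them miR-155-5p, miR-532-3p, and miR-15b-3p, were named because they changed alike in its samples and in published data from stroke patients. MiR-204-5p was picked from brain-derived EVs of the hNSCs and control groups and from cultured neurons. The remaining members were picked by how brain and plasma levels correlated. Apart from miR-204-5p, these choices drew on the plasma libraries, so the direction seen here is not independent evidence for them. Of the 13 tested members of the list, 0 were called, and the median log2 fold change was 0.00. In TMM-scaled CPM 3 were lower in every control library (10.7% of all tested), namely miR-155-5p, miR-532-3p, and miR-15b-3p. Of these only miR-532-3p stayed so in deposited TPM. MiR-34a-5p, a p53 target, had 189, 137, and 181 CPM in the control group and 151, 83.2, and 145 CPM in the healthy group (0.42 ± 0.32, unadjusted p = 0.211). Its groups overlapped in CPM, and in deposited TPM all control libraries were higher. MiR-24-3p was the steadiest, at 1232 to 1355 CPM and 1140 to 1313 CPM (0.06 ± 0.24).

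The plasma libraries of other times show where 10 days stood in the course after stroke. Control rats at 10 days differed from control rats at 31 days in 25 miRNAs (8.09% of 309), 6 higher and 19 lower at 10 days, and from those at 4 days in 0 (edgeR, 73 at an unadjusted p under 0.05; DESeq2 21, limma 4). These contrasts use the same 3 libraries at 10 days as the comparison with the healthy group.

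MiR-365-3p had the smallest adjusted p against 31 days (log2 fold change −2.57 ± 0.53, edgeR adjusted p = 0.0369). Its mean level was 111 ± 18.6 CPM (SD, n = 3) at 4 days and 226 ± 128 CPM at 31 days. MiR-187-3p was likewise lower at 10 days than at 31 days (−2.53 ± 0.78, adjusted p = 0.0498), and miR-328a-3p and miR-488-3p were higher (1.79 ± 0.48 and 2.53 ± 0.75, adjusted p = 0.0425 for both). Lower at 10 days were also the muscle miRNAs miR-133a-3p (−2.98 ± 0.80), miR-133b-3p (−2.47 ± 0.66), and miR-206-3p (−3.05 ± 0.84), 3 of the 8 tested. So were 5 of the 10 epithelial and pancreatic miRNAs, among them miR-200a-3p (−2.30 ± 0.67). Of the 13 tested members of the brain list, 3 were lower and 2 higher at 10 days. Over all 309 tested miRNAs, 19 were called lower and 6 higher (8.09% together). MiR-217-5p, miR-137-3p, and miR-129-5p were among the calls with at most 2 UMIs over the 3 libraries at 10 days, too few for a fold. MiR-342-3p took another course, at 2378 ± 656 CPM at 4 days and 3187 ± 1980 CPM at 31 days, with no call against 10 days (0.44, adjusted p = 0.447, and 0.02, adjusted p = 0.963). The count against 31 days ranged from 0 to 82 when single libraries were left out, and was 0 without control replicate 1 or 3 at 10 days or replicate 1 or 2 at 31 days, and 82 without replicate 3 at 31 days.

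**Figure D4:**
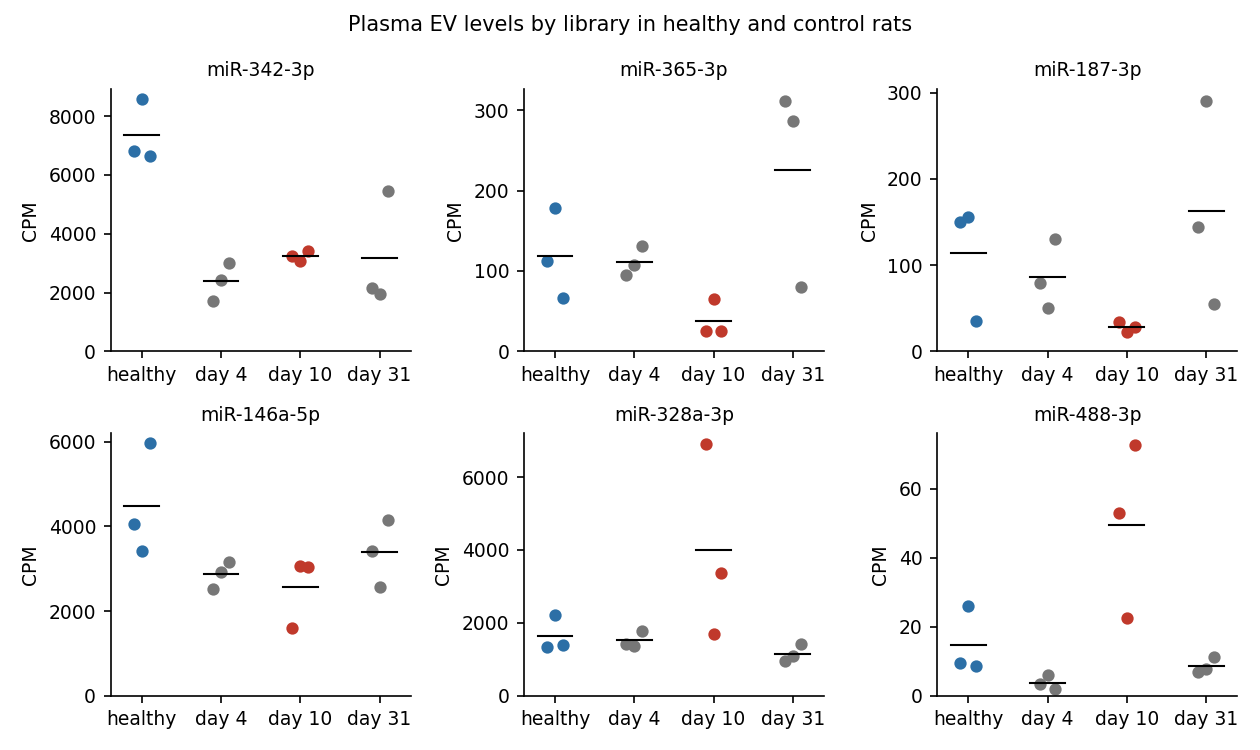
Plasma EV levels in CPM (vertical axis, from 0) of 6 miRNAs in each library of the healthy group (blue) and of the control group at 4, 10 (red), and 31 days poststroke, with a bar at each mean (n = 3). MiR-365-3p and miR-187-3p are lowest at 10 days and miR-328a-3p and miR-488-3p highest, while miR-342-3p has its highest mean in the healthy group.

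Rats given hNSCs were compared with control rats at the same time. There were 3 miRNAs called higher in the hNSCs group (0.971% of 309), the muscle miRNAs miR-1-3p (2.86 ± 0.68), miR-1b (2.84 ± 0.67), and miR-206-3p (3.66 ± 0.86; adjusted p = 0.0471 for each, edgeR). MiR-1-3p and miR-1b differ at 1 base and had nearly equal counts in every library, so they count as 1 signal, and miR-1-3p was at 9014 ± 6204 CPM in the hNSCs group (SD, n = 3). The count was 0 by limma, and with edgeR without control replicate 1 or 3 or hNSCs replicate 2 or 3. Against the healthy group the hNSCs group differed in 0 miRNAs (edgeR, 19 at an unadjusted p under 0.05; DESeq2 3, limma 0).

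Brain-derived EVs of the same 6 rats held miRNAs that passed the test. In brain, 68 of 350 tested miRNAs were called (19.4%), 39 of them higher in the control group at 10 days. Of these 68, 52 were also tested in plasma, where 0 were called and 38 had a negative log2 fold change, a share near that of all miRNAs tested in plasma (210 of 309). The count in brain was 14 without control replicate 2, 36 without control replicate 3 or healthy replicate 2, and 96 without control replicate 1. With limma on log2(TPM + 1) it was 67, of which 55 were higher and 12 lower, against 39 and 29 with edgeR. Of the 7 leukocyte miRNAs tested in brain, 4 rose there, among them miR-142-3p (3.17 ± 0.49, adjusted p = 0.00042), miR-146a-5p (3.06 ± 0.60, adjusted p = 0.00289), and miR-155-5p (3.24 ± 0.79, adjusted p = 0.00913; edgeR). MiR-155-5p was low in healthy brain, at 9.15 ± 7.06 CPM (SD, n = 3) against 97.1 ± 80.4 CPM in the control group. Its rise is therefore uncertain in size, and the level of 3 counts was given in CPM for plasma libraries only.

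The difference between the tissues was tested directly with limma on log2(CPM + 1) in plasma minus brain of each of the 21 rats, a test chosen after the data were seen. Of the 253 miRNAs tested in both tissues, 24 changed differently (9.49%), with 23 lower in plasma than in brain relative to the healthy group and 1, miR-488-3p, higher. MiR-146a-5p was 2.62 higher in brain and 0.82 lower in plasma (difference −3.44, adjusted p = 0.00271). MiR-152-3p was 1.82 higher in brain and 0.48 lower in plasma (adjusted p = 0.000606), and miR-365-3p was 0.867 higher in brain and 1.64 lower in plasma (adjusted p = 0.0113). MiR-155-5p (difference −4.02, adjusted p = 0.0253) and miR-142-5p (−2.99, adjusted p = 0.0300) also passed the test, each in 2 of the 6 tests that left out 1 rat. The low level of miR-155-5p in healthy brain enters its difference too, so the size of that difference is uncertain. The median difference over the 253 was −0.41, and without TMM factors in plasma it was −0.19 with 17 called, 12 of them lower in plasma.

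The count fell to between 4 and 21 when 1 rat was left out, and miR-146a-5p, miR-152-3p, miR-30b-5p, and miR-365-3p were called in all 6 such tests, miR-488-3p in 0. It was 4 without control replicate 2, 9 without control replicate 3, and 6 without healthy replicate 1 or 3. In brain, miR-146a-5p was at 881, 6934, and 4274 CPM in the control group and 515, 441, and 493 CPM in the healthy group, so control replicate 1 rose least.

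**Figure D5:**
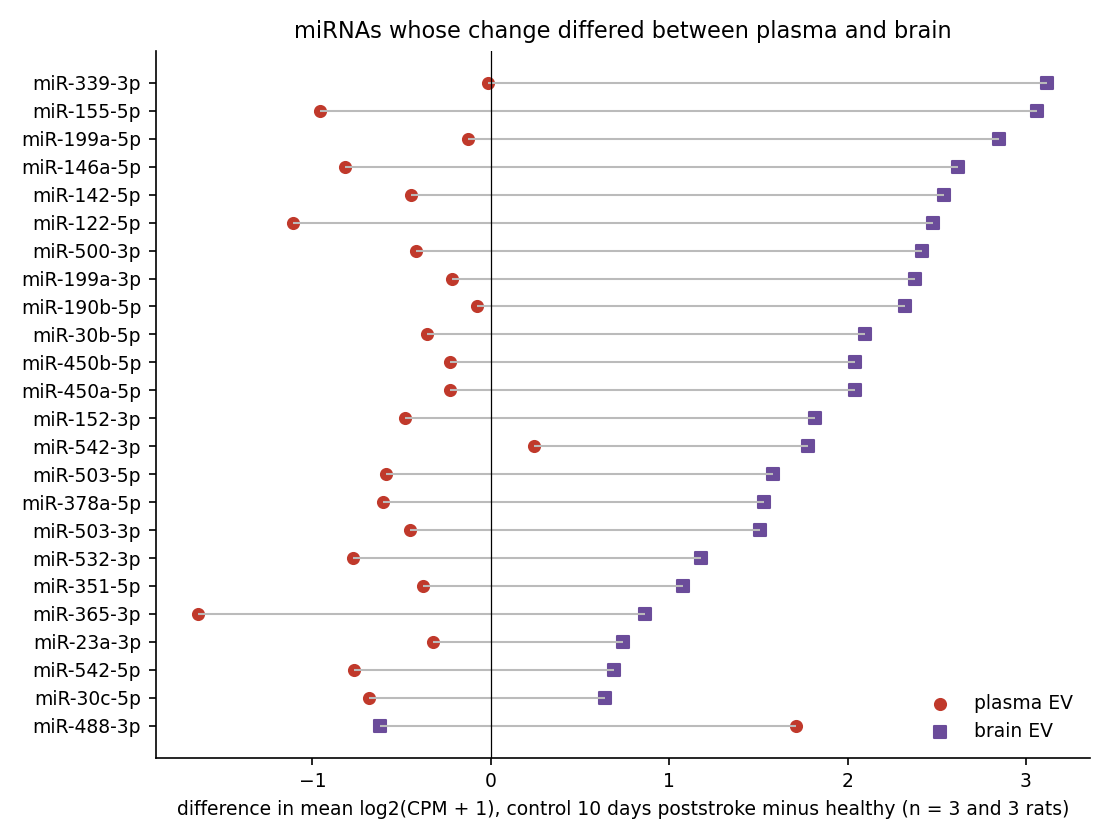
Difference in mean log2(CPM + 1) between the control group at 10 days poststroke and the healthy group (horizontal axis) in plasma-derived EVs (red circles) and brain-derived EVs (purple squares) of the same rats (n = 3 and 3), for the 24 miRNAs whose change differed between the tissues. All but miR-488-3p lie to the right in brain, and miR-155-5p and miR-146a-5p are on opposite sides of 0 in plasma and brain.

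Rows of near-identical miRNAs may share reads. Among the tested miRNAs with over 100 UMIs in the 6 libraries together, 15 pairs had counts within 5% of each other in all 6 libraries, such as miR-103-3p and miR-107-3p, miR-23a-3p and miR-23b-3p, and miR-100-5p and miR-99a-5p. The members of a pair differ at 0 or 1 base once aligned. Their values are uncertain as separate miRNAs. Counts of miRNAs in the text include both members of a pair. MiR-450a-5p and miR-450b-5p are both among the 24 that changed differently between the tissues. MiR-103-3p and miR-107-3p are both among the 9 with a higher level at an unadjusted p under 0.05 in edgeR's test.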

How the data were processed

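Small RNA was sequenced from plasma-derived EVs (the extraction label says serum), isolated by size exclusion chromatography. The authors deposited UMI counts for each miRNA, not normalized, and TPM values, which are the counts relative to the library total. They removed other RNA classes and matched reads to miRBase, and the labels name Rnor_6.0, whose coordinates are not given here. The deposited mRNA counts gave the hemoglobin share. FPKM values were not used here. Each library's group came from its title.

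Known miRNAs were tested with edgeR 4.0.16 (TMM, filterByExpr, quasi-likelihood) in 1 model of the 21 plasma libraries in 7 groups. Alternatives used DESeq2 1.42.0, limma 3.58.1 on log2(TPM + 1) or log2(TPM + 0.1), other scalings and filters, and libraries left out. The main steps were tested on simulated data. P-values and SEs of the main fits use the spread between rats within the 7 groups of 3, shared over the groups and moderated across miRNAs. They do not measure the spread of the 3 and 3 rats compared alone. Floors cover counting error only.

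MiRNAs and lists were chosen with earlier results of these data known. Named were the 10 with the smallest p (as fewer than 10 were called), the 10 most abundant, and the top member of each list. Named too were a list of 15 that the study names (not all it names), miR-451-5p, and miR-23a-3p. These rules gave 44 miRNAs. Up to 3 called in each other comparison were named separately. Other miRNAs in the text were chosen after their values were seen.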

Additional observations from a re-analysis of the deposited data

Results flagged for a closer look

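In the control group 25 miRNAs were called between 10 and 31 days poststroke in plasma-derived EVs (edgeR's quasi-likelihood test, 6 higher and 19 lower at 10 days), with 4 by limma and 0 in 4 of the 6 tests that left out 1 library, and 0 between 10 and 4 days (edgeR, 73 at an unadjusted p under 0.05; DESeq2 21, limma 4). The change at 10 days also differed between plasma-derived and brain-derived EVs of the same rats for 24 of 253 miRNAs (9.49%, limma). Of the 10 miRNAs with the smallest p in plasma, 4 were among them. Both measures use the same plasma libraries, so nothing is read from that count. The 4 had differences, plasma minus brain, of −2.51 for miR-365-3p, −3.44 for miR-146a-5p, −1.96 for miR-532-3p, and 2.33 for miR-488-3p on the log2 scale. When each of the 6 rats was left out, miR-365-3p and miR-146a-5p were called in all 6 tests, miR-532-3p in 3, and miR-488-3p in 0. Groups of 3 libraries were not screened for single outlying samples.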

How the results depend on the processing

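The comparison of 10 days poststroke with the healthy group called 0 miRNAs under every alternative with an adjusted p, including each library left out and, chosen after seeing the data, the 2 let-7-rich libraries left out together (8 at an unadjusted p under 0.05). Without adjustment the count was 23. The groups share replicate numbers but hold different rats, and same-numbered libraries did not deviate together (correlations −0.253, −0.211, and 0.181). A replicate block on the 6 libraries gave 0 called, 5 at an unadjusted p under 0.05, and 0.08 for let-7c-5p, against 15 and −0.06 in the fit of the same 6 libraries without the block. With 3 rats per group, the median SE was 0.57, and miRNAs under 2.59 to 4.22 CPM were below 3 counts.

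Other comparisons moved more, and the cause was not tested. Against 4 days, DESeq2 called 21, limma 4, and edgeR without a filter 2, and leaving out 1 library gave 0 to 2 (2 without control replicate 2 at 10 days). Against 31 days, DESeq2 called 55, limma 4, and edgeR without a filter 39, and leaving out 1 library gave 0 to 82 (48 without control replicate 2 at 10 days). For hNSCs against control, DESeq2 and edgeR without a filter called 5 and limma 0, and leaving out 1 library gave 0 to 5. For hNSCs against healthy, DESeq2 and edgeR without a filter called 3, and leaving out 1 library gave 0 to 4 (4 without hNSCs replicate 1). In brain, leaving out 1 rat gave 14 to 96 calls (14 without control replicate 2, 36 without control replicate 3 or healthy replicate 2), and the difference between plasma and brain had 4 to 21.

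Relative to the median of all tested miRNAs, the 10 miRNAs with the smallest p kept their sign in every setting that gave a value (miR-9a-3p and miR-369-5p had none in the fits of the 6 libraries). With 1 library left out, their size moved by over 1.5 times for miR-328a-3p (1.52, and 0.83 without control replicate 1), miR-9a-3p (3.14, and 1.54 without control replicate 2), miR-361-5p (−0.49, and −0.29 without control replicate 2), and miR-146a-5p (−0.55, and −0.35 without control replicate 1). With predicted miRNAs kept, 4 of the 10 shrank by over 1.5 times, to −0.09 for miR-146a-5p, −0.19 for miR-361-5p, −0.26 for miR-532-3p, and −0.90 for miR-365-3p. With limma, miR-9a-3p was 1.55 on log2(TPM + 1) and 1.23 on log2(TPM + 0.1), and miR-369-5p, whose fitted value depends on the prior count, also shrank by over 1.5 times on log2(TPM + 1). Without both let-7-rich libraries miR-365-3p was −0.85. With predicted miRNAs kept, the values were also 0.16 for miR-16-5p, 0.06 for let-7c-5p, 0.28 for miR-29c-3p, and 0.34 for miR-23a-3p, and with limma let-7c-5p was 0.05. Without both let-7-rich libraries the values were 0.34 for let-7c-5p, 0.33 for let-7b-5p, −0.01 for miR-126a-3p, −0.03 for miR-21-5p, and −0.06 for miR-451-5p. Leaving out 1 library gave −0.45 to 0.04 for miR-16-5p, −0.22 to 0.74 for let-7a-5p, −0.07 to 0.83 for let-7f-5p, −0.41 to 0.70 for let-7c-5p, −0.64 to 0.59 for let-7b-5p, and −0.21 to 0.85 for let-7e-5p. It gave −0.35 to 0.53 for miR-126a-3p, −0.34 to 0.57 for miR-1-3p, −0.15 to 0.47 for miR-21-5p, −0.54 to 0.26 for miR-423-5p, −0.15 to 0.55 for miR-9a-5p, −0.24 to 0.74 for miR-451-5p, −0.17 to 0.02 for miR-23a-3p, and −0.36 to 0.54 for miR-29a-5p, which was at 0.00.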
